A study of Homo sapiens with 9 samples.

Results

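The Notch receptors and their ligands were followed across 3 sublines derived from SUIT-2 cells, an established human pancreatic adenocarcinoma line, together with HES1, a gene that Notch signalling switches on. The genes were taken as the rows of the deposited count table with the symbols NOTCH1, NOTCH2, NOTCH3, NOTCH4, JAG1, JAG2, DLL1, DLL3, DLL4 and HES1, and all 10 were found among its 42717 genes. The sublines were S2-007, S2-020 and S2-028, each sequenced as 3 libraries from untreated cells kept in DMEM with 10% inactivated serum. The study set out to compare cell lines in which the tumour suppressor maspin lies in different parts of the cell: by its immunofluorescence S2-007 carries maspin in nucleus and cytoplasm (panMaspin) and S2-028 mainly in the cytoplasm (cytMaspin), and by its Western blots S2-020 has little of it. Each subline is 1 line, so a difference between sublines cannot be told apart from any other difference between these lines, and no gene was manipulated in the sequenced cells.

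Notch receptors are single-pass membrane proteins that are switched on by ligands on a neighbouring cell. Pulling by the ligand lets the protease ADAM10 and then the gamma-secretase complex cut the receptor, and the freed intracellular domain enters the nucleus, where it joins the DNA-binding protein RBPJ and a Mastermind-like coactivator to switch on genes such as HES1. In the pancreas the pathway restrains differentiation of progenitor cells, and it is active again in many ductal adenocarcinomas.

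The total count per library lay between 60328748 and 86253923. Libraries of one line differed by a chi-square per gene of 7.95 to 21.6, so none was a copy of another, and libraries of different lines by 205 to 311. Whether the libraries of a line came from separate cultures is not stated, so p-values measure the spread between these samples, which may be technical. Epithelial markers were present in every library, with KRT8, KRT18, KRT19, EPCAM and CDH1 summing to between 9320 and 9810 CPM (counts scaled to library size) in S2-007, between 4270 and 5380 CPM in S2-020 and between 14400 and 16900 CPM in S2-028. In S2-020 the cell adhesion gene CDH1 stood at 4.54 ± 0.27 CPM (SD, n = 3), against 54.2 ± 2.4 CPM in S2-007 and 112 ± 7 CPM in S2-028. The other markers did not all move with it. In S2-020 against S2-007 all were lower, KRT19 21.1-fold, CDH1 12.2-fold, EPCAM 4.43-fold, KRT8 1.69-fold and KRT18 1.22-fold. In S2-028 against S2-007 KRT18, CDH1 and KRT8 were higher (2.41-fold, 2.08-fold and 1.76-fold). There EPCAM and KRT19 were lower (1.25-fold and 1.1-fold). The part of these markers in the differences below was not tested. In bulk RNA, fewer cells expressing a gene and less RNA of it per cell cannot be told apart.

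Positions below are those of GENCODE on GRCh38, with exons counted in the MANE Select transcript. Levels are CPM with TMM normalisation over the 9 libraries. A gene was called at an edgeR quasi-likelihood adjusted p under 0.05 and a change of at least 1.5-fold. In S2-028 against S2-007, 4 of the 9 members tested were called, 2 higher and 2 lower, where 18.4% of all 26371 genes tested were called, 10.2% higher and 8.19% lower. In S2-020 against S2-007, 3 were called, 1 higher and 2 lower, beside 21.6% of 26657 genes, 9.57% higher and 12.1% lower. In S2-028 against S2-020, 5 were called, 4 higher and 1 lower, beside 22.2% of 26031 genes, 12.1% higher and 10.1% lower. The libraries of a pair of lines were fully apart in 7, 4 and 7 of the 9 members in these comparisons, beside 43.3%, 48.5% and 48.9% of all genes tested. DLL3 was too low to be tested in any of them. The median log2 fold change of the 9 members was -0.04, -0.35 and 0.34, beside 0.00, -0.05 and 0.02 over all genes tested. Each line enters 2 of the 3 comparisons, so these are not independent of one another.

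**Figure D1:**
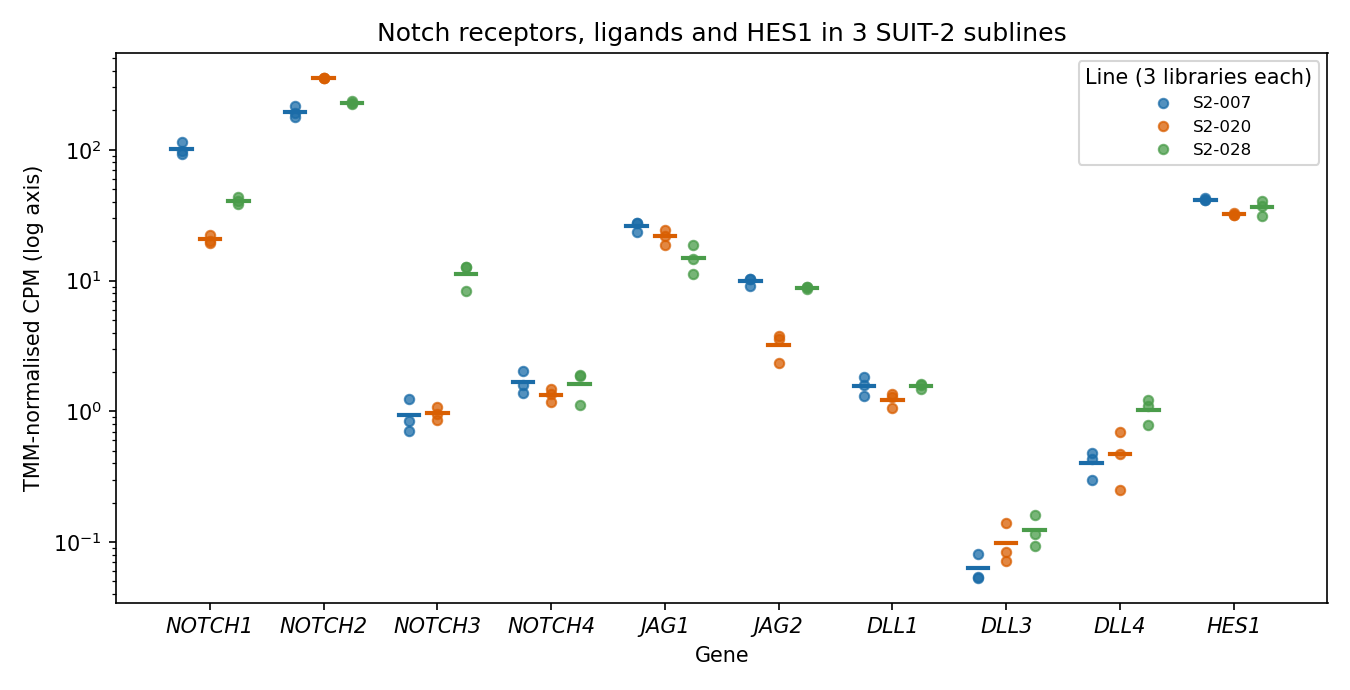
Each point is 1 library and each bar the mean of the 3 libraries of a line, as TMM-normalised CPM on a log axis, for the 4 receptors, 5 ligands and HES1. NOTCH1 separated all 3 lines, NOTCH3 stood apart in S2-028, and JAG2 was lowest in S2-020.

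Among the receptors, NOTCH1, NOTCH2 and NOTCH3 each had a different order of lines. NOTCH1 (chr9:136494433-136546048, minus strand, 34 exons), the receptor best known for its roles in development and T cells, was highest in S2-007. Its level was 92.4, 98.6 and 114 CPM in S2-007, 43.2, 38.8 and 40.7 CPM in S2-028, and 22.4, 19.5 and 20.2 CPM in S2-020. No library of any line reached into the range of another line. NOTCH1 was 2.48-fold lower in S2-028 than in S2-007 (log2 fold change -1.31 ± 0.07 SE, adjusted p = 7.49e-12). It was 5.02-fold lower in S2-020 than in S2-007 (-2.33 ± 0.08, adjusted p = 2.13e-15) and 1.98-fold higher in S2-028 than in S2-020 (0.98 ± 0.08, adjusted p = 4.85e-09). All 3 calls held against a null of a 1.5-fold change, the largest adjusted p being 8.88e-05.

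NOTCH2 (chr1:119911553-120069662, minus strand, 34 exons), the most abundant receptor here and one that pancreatic ductal cells are known to carry, had the opposite order. It was counted at 180, 192 and 215 CPM in S2-007, at 234, 226 and 229 CPM in S2-028, and at 353, 354 and 354 CPM in S2-020. All S2-020 libraries lay above all others, and those of S2-028 lay just above those of S2-007. NOTCH2 was 1.77-fold higher in S2-020 than in S2-007 (log2 fold change 0.82 ± 0.06, adjusted p = 2.52e-10). The difference between S2-028 and S2-007 was small, 1.18-fold (0.24 ± 0.06, adjusted p = 0.00535), and did not reach the fold required. S2-028 was 1.54-fold lower than S2-020 (-0.62 ± 0.05, adjusted p = 1.50e-09). That call sat close to the threshold: with scaling by total count alone the difference was -0.54 and was no longer called, and against a 1.5-fold null its adjusted p was 0.393.

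NOTCH2 shares its beginning with 4 partial copies on the same chromosome, the NOTCH2NL genes, which arose by duplication and keep the first exons. Of the 31-base words of NOTCH2 transcripts, 11.02% also occur in other genes, and for NOTCH2NLA, NOTCH2NLB, NOTCH2NLC and NOTCH2NLR the share is between 83.9% and 95.8%. How the counting placed reads that match several of these genes is not given in the sources used here, so counts at the shared exons are uncertain for all 5. A stretch of 120 bases within coding exon 3 shows how alike the copies are, from GRCh38. Capitals mark the 5 positions where the 5 genes are not all the same. The stretch was chosen as the one of this length with the most differing positions in the exon. NOTCH2 lies at chr1:120005402-120005521 (minus strand), NOTCH2NLA at chr1:146164824-146164943 (minus), NOTCH2NLB at chr1:148615764-148615883 (minus), NOTCH2NLC at chr1:149455385-149455504 (plus) and NOTCH2NLR at chr1:120785041-120785160 (plus).
NOTCH2: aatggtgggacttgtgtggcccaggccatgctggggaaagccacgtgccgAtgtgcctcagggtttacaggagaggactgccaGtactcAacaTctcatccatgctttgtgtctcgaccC
NOTCH2NLA: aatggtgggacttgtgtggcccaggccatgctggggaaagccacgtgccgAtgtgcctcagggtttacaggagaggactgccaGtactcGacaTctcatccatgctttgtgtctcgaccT
NOTCH2NLB: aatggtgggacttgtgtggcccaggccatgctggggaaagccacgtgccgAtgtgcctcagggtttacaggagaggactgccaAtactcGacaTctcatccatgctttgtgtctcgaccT
NOTCH2NLC: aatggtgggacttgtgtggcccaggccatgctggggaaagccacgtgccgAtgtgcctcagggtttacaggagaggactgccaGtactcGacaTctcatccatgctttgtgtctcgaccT
NOTCH2NLR: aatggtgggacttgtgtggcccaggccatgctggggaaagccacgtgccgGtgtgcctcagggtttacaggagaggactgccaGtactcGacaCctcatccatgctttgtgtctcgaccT

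The copies varied less between lines than NOTCH2 did. NOTCH2NLA averaged 17.7 ± 2.0 CPM in S2-007, 20.3 ± 1.1 CPM in S2-020 and 17.8 ± 1.8 CPM in S2-028. NOTCH2NLB averaged 17.4 ± 2.0, 18.9 ± 1.9 and 18.7 ± 2.3 CPM in the same order, and NOTCH2NLC 8.93 ± 1.12, 10.1 ± 1.3 and 9.62 ± 0.45 CPM. NOTCH2NLR was lowest, at 1.67 ± 0.12, 1.96 ± 0.43 and 1.53 ± 0.08 CPM. None of the 4 paralogs was called in any comparison, and their smallest adjusted p over the 3 comparisons was 0.132 (edgeR), for NOTCH2NLA in S2-028 against S2-020. Their libraries overlapped in every comparison.

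NOTCH3 (chr19:15159038-15200995, minus strand, 33 exons), known from smooth muscle and mural cells and amplified in some carcinomas, was the receptor with the widest range. It was at 0.71, 0.85 and 1.24 CPM in S2-007 and at 1.09, 0.96 and 0.86 CPM in S2-020, but at 12.7, 12.6 and 8.34 CPM in S2-028. The lowest S2-028 library was far above every library of the other lines, which overlapped. S2-028 was 12.1-fold above S2-007 (log2 fold change 3.60 ± 0.21, adjusted p = 1.46e-11) and 11.6-fold above S2-020 (3.53 ± 0.19, adjusted p = 1.25e-11). It was not called between S2-020 and S2-007 (0.03 ± 0.30, adjusted p = 0.952). The mesenchymal markers COL1A1, COL3A1, PDGFRB, LUM and DCN summed to between 2.71 and 4.81 CPM in S2-007, 2.34 and 3.09 in S2-020 and 3.48 and 5.72 in S2-028. Of these, COL1A1, a collagen of fibroblasts, was called higher in S2-028 than in S2-007, with overlapping libraries (log2 fold change 0.76 ± 0.27, adjusted p = 0.0351). In that comparison the other markers tested went the other way without being called: COL3A1 (-2.09 ± 0.93), PDGFRB (-0.90 ± 0.68) and DCN (-1.12 ± 0.44). COL1A1 was also called higher in S2-028 than in S2-020 (1.46 ± 0.26, adjusted p = 0.000108), the direction of NOTCH3. There PDGFRB, which mural cells carry, was called lower (-1.77 ± 0.55, adjusted p = 0.0141), and DCN was lower without being called (-0.33 ± 0.51). Their part in the NOTCH3 difference was not tested.

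NOTCH4 (chr6:32194843-32224067, minus strand, 30 exons), a receptor of endothelial cells, was low throughout. Its level was 1.39, 1.59 and 2.04 CPM in S2-007, 1.47, 1.18 and 1.35 CPM in S2-020, and 1.11, 1.88 and 1.87 CPM in S2-028. The lines overlapped in all comparisons and none was called, the smallest adjusted p being 0.291 (S2-020 against S2-007, log2 fold change -0.35 ± 0.24). In S2-007 the third library was the highest of its line for all 4 receptors.

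**Figure D2:**
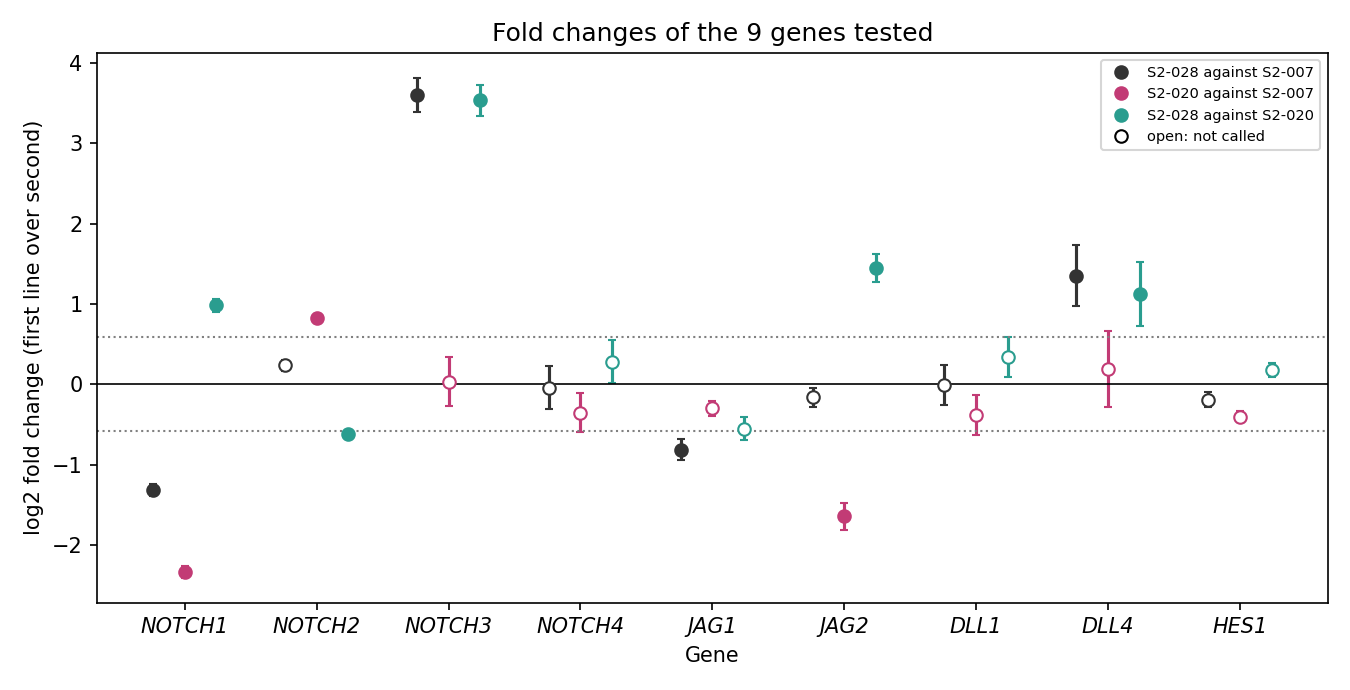
Points are log2 fold changes with their standard errors for the 9 genes tested, in 3 comparisons, filled where called, and dotted lines mark a 1.5-fold change. NOTCH3 lay at 3.60 and 3.53 in both comparisons of S2-028, and NOTCH1 at -2.33 and JAG2 at -1.64 in S2-020 against S2-007.

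Per kilobase of exon, where levels of different genes can be set side by side, NOTCH2 was the main receptor in all 9 libraries, and the lines differed in what came beside it. NOTCH2 stood at 11.7 ± 1.1 CPM per kilobase in S2-007, 21.1 ± 0.0 in S2-020 and 13.7 ± 0.3 in S2-028. Of the receptor sum, NOTCH2 made up 58.6%, 58.5% and 57.7% in the libraries of S2-007, 91.1%, 92.2% and 92.0% in those of S2-020, and 74.0%, 74.5% and 76.0% in those of S2-028. NOTCH1 made up 40.4% ± 0.3 in S2-007, 7.17% ± 0.47 in S2-020 and 17.8% ± 0.6 in S2-028 (SD, n = 3). NOTCH3 made up 0.49% ± 0.09 and 0.45% ± 0.05 in S2-007 and S2-020 but 6.49% ± 1.36 in S2-028. NOTCH4 made up 0.85% ± 0.08, 0.59% ± 0.06 and 0.91% ± 0.27, with each S2-020 library below each S2-007 library, although its CPM overlapped between these lines. The sum of the 4 receptors was 20.1 ± 2.0 CPM per kilobase in S2-007, 23.02 ± 0.13 in S2-020 and 18.3 ± 0.5 in S2-028, and the S2-007 and S2-028 libraries overlapped.

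**Figure D3:**
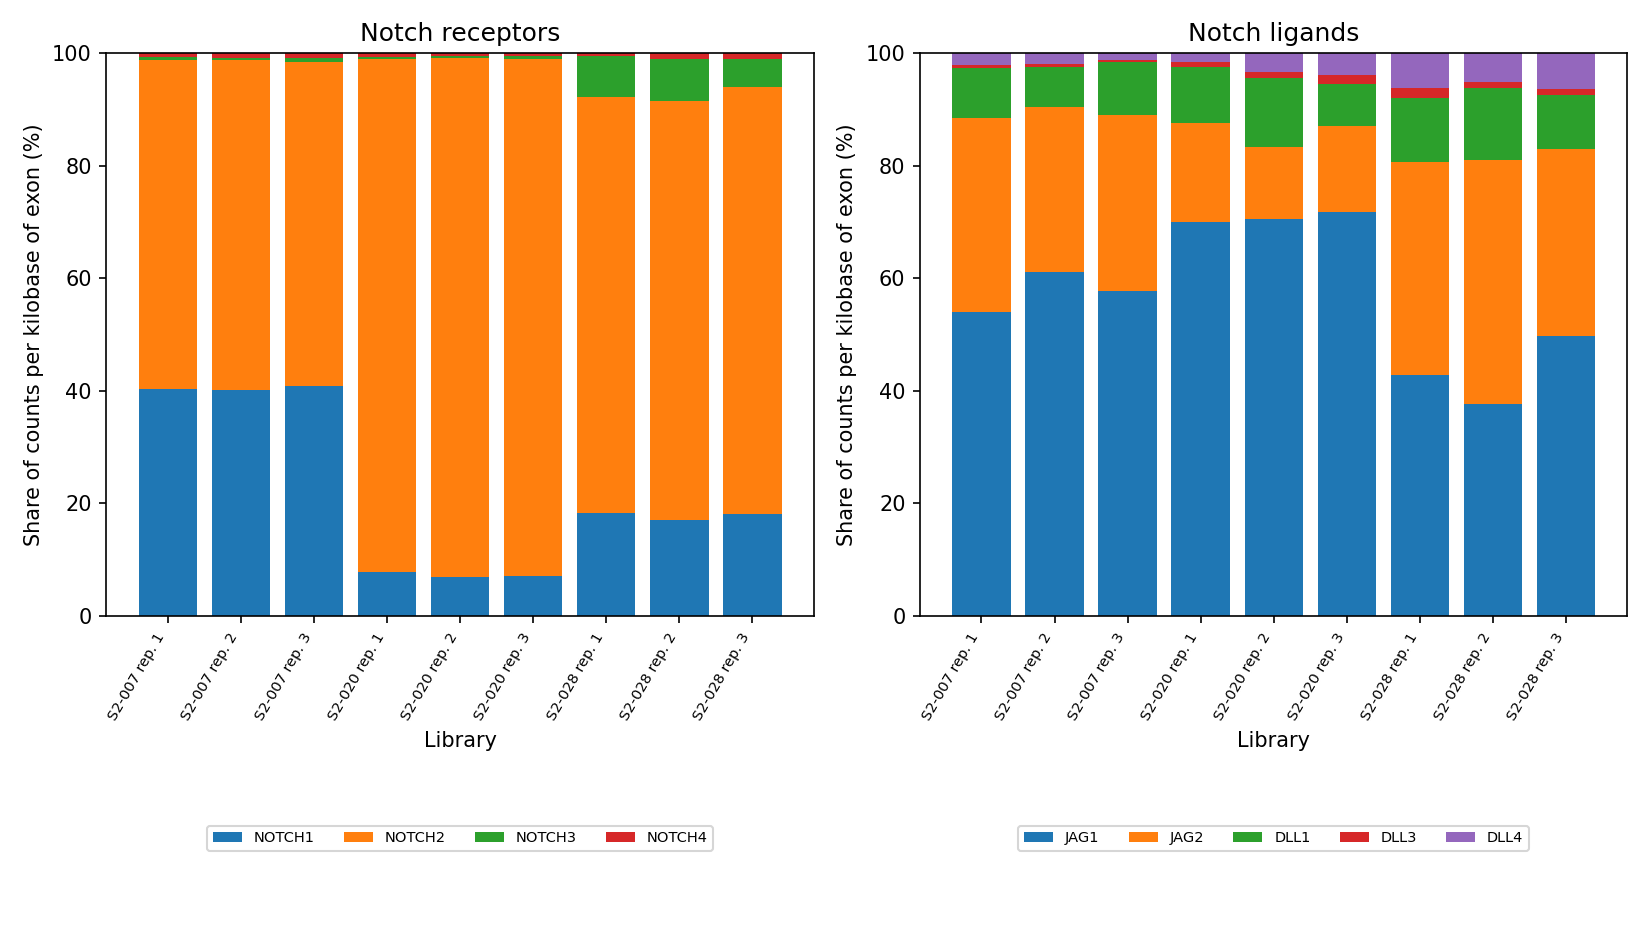
Stacked bars give, for each library, the share of each receptor gene (left) and ligand gene (right) in its family, in percent of counts per kilobase of exon. NOTCH2 took 91.1% to 92.2% of the receptor sum in S2-020, and JAG1 took 69.9% to 71.8% of the ligand sum there against 37.6% to 49.7% in S2-028.

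Of the ligands, JAG1 and JAG2 carried most transcripts. JAG1 (chr20:10637684-10673999, minus strand, 26 exons), a Jagged-type ligand much studied in tumours, was counted at 23.4, 27.4 and 27.5 CPM in S2-007, at 21.9, 18.8 and 24.5 CPM in S2-020, and at 14.6, 11.3 and 18.6 CPM in S2-028. The S2-028 libraries lay below all others, the highest of them just under the lowest of S2-020, and the other lines overlapped. JAG1 was 1.76-fold lower in S2-028 than in S2-007 (log2 fold change -0.81 ± 0.13, adjusted p = 3.52e-05), although against a 1.5-fold null the adjusted p was 0.108. Against S2-020 the difference, -0.55 ± 0.14 (adjusted p = 0.00316), fell short of 1.5-fold. It was called when the third library of S2-028 was left out (-0.73, adjusted p = 0.000133) or the second of S2-020 (-0.65, adjusted p = 0.00185). Between S2-020 and S2-007 JAG1 differed by -0.30 ± 0.09 (adjusted p = 0.0165), short of the fold required.

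JAG2 (chr14:105140995-105168776, minus strand, 26 exons), the other Jagged ligand, was low in S2-020 alone. It was at 10.3, 9.01 and 10.3 CPM in S2-007 and at 8.86, 8.99 and 8.54 CPM in S2-028, but at 3.79, 2.34 and 3.57 CPM in S2-020. Every S2-020 library lay below every other library. JAG2 was 3.12-fold lower in S2-020 than in S2-007 (log2 fold change -1.64 ± 0.16, adjusted p = 6.71e-08) and 2.73-fold higher in S2-028 than in S2-020 (1.45 ± 0.17, adjusted p = 7.34e-07). The difference between S2-028 and S2-007 was -0.16 ± 0.12 (adjusted p = 0.368). Of the exon bases of JAG2, 7.33% lie under another annotated gene of the same strand.

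The Delta-like ligands were scarce. DLL1 (chr6:170282206-170291078, minus strand, 11 exons), a ligand of developing tissues, was at 1.58, 1.32 and 1.82 CPM in S2-007, 1.28, 1.35 and 1.06 CPM in S2-020, and 1.61, 1.58 and 1.48 CPM in S2-028. It was not called in any comparison, the smallest adjusted p being 0.256 (S2-020 against S2-007, -0.38 ± 0.25), though S2-028 lay above S2-020 without overlap. Of its exon bases, 9.69% lie opposite FAM120B, and how strand was used in counting is not given in the sources used here. DLL3 (chr19:39498947-39508469, plus strand, 9 exons), which unlike the others acts mainly inside the cell and is known from neuroendocrine tumours, had between 4 and 10 counts in each library, or 0.05, 0.08 and 0.05 CPM in S2-007, 0.08, 0.07 and 0.14 CPM in S2-020 and 0.16, 0.09 and 0.12 CPM in S2-028. These counts are just above 3, the level taken as the floor, and no fold change is given.

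DLL4 (chr15:40929340-40939073, plus strand, 11 exons), a ligand of sprouting endothelium, was higher in S2-028, on few counts. It was at 0.48, 0.43 and 0.30 CPM in S2-007, 0.25, 0.47 and 0.70 CPM in S2-020, and 1.09, 0.78 and 1.21 CPM in S2-028, from 18 to 74 counts in a library. The S2-028 libraries were above all others, the lowest of them by little, and the other lines overlapped. DLL4 was 2.55-fold higher in S2-028 than in S2-007 (log2 fold change 1.35 ± 0.38, adjusted p = 0.00794) and 2.18-fold higher than in S2-020 (1.12 ± 0.40, adjusted p = 0.0293). Against a 1.5-fold null both were lost, with adjusted p of 0.0723 and 0.198. The call against S2-020 was also lost without the first or the third library of S2-028 (adjusted p = 0.0839 and 0.103) and without the first or the second of S2-020 (adjusted p = 0.122 and 0.07). Endothelial markers were low: PECAM1, CDH5, VWF, KDR and TEK summed to 5.66 to 7.33 CPM in S2-028, 6.00 to 7.62 CPM in S2-007 and 8.96 to 10.1 CPM in S2-020, most of it PECAM1. CDH5 averaged 0.09, 0.19 and 0.10 CPM in S2-007, in S2-020 and in S2-028. CDH5, KDR and TEK were too low to be tested in the comparisons of S2-028. The part of these markers in the DLL4 difference was not tested.

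Per kilobase of exon the ligand sum was 4.87 ± 0.24 CPM in S2-007, 3.30 ± 0.40 in S2-020 and 3.64 ± 0.39 in S2-028, below the receptor sum in each library. JAG1 made up 54.0%, 61.1% and 57.8% of it in S2-007, 69.9%, 70.6% and 71.8% in S2-020, and 42.8%, 37.6% and 49.7% in S2-028. Its share separated the lines, with S2-020 highest. JAG2 made up 31.7% ± 2.7 in S2-007, 15.2% ± 2.4 in S2-020 and 38.1% ± 5.1 in S2-028. It was above JAG1 in 1 S2-028 library on this scale, and in 0 of the 9 libraries with the length of the MANE Select transcript or without division by length. DLL1 made up 8.44% ± 1.14, 9.94% ± 2.36 and 11.3% ± 1.6, DLL4 1.76% ± 0.48, 3.00% ± 1.27 and 5.91% ± 0.71, and DLL3 0.49% ± 0.13, 1.12% ± 0.29 and 1.29% ± 0.33. Over the 27 comparisons of a receptor or ligand share between lines, 19 reached 0.1, the smallest 2-sided p that an exact permutation test of 3 against 3 libraries can give, or 0.142 after Benjamini-Hochberg adjustment. Among the 19 were the shares of DLL3 in S2-028 and in S2-020 against S2-007, which rest on 4 to 10 counts in a library. The design cannot reach 0.05 here.

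HES1 (chr3:194136148-194138732, plus strand, 4 exons) encodes a repressor of transcription and is the classic direct target of the Notch intracellular domain. It was at 40.9, 42.6 and 41.0 CPM in S2-007, 33.1, 31.7 and 31.6 CPM in S2-020, and 40.6, 31.02 and 37.4 CPM in S2-028. S2-007 lay above S2-020 without overlap, and the S2-028 libraries reached from just below the lowest of S2-020 to just below the lowest of S2-007. HES1 was not called in any comparison: S2-020 against S2-007 differed by -0.40 ± 0.06 (1.32-fold lower, adjusted p = 3.67e-05), S2-028 against S2-007 by -0.19 ± 0.09 (adjusted p = 0.115) and S2-028 against S2-020 by 0.18 ± 0.09 (adjusted p = 0.122).

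The HES1 promoter is shown because RBPJ is known to bind sites of the form GTGGGAA there. In the 250 bases before the start (chr3:194135898-194136147, plus strand, RefSeq, GRCh38.p14) capitals mark GTGGGAA, 85 bases before the start, and TTGGGAA, 71 bases before it. TTGGGAA is marked for its likeness in letters and not as a known RBPJ site. No other form of site was searched for, so lower case does not mean that a site is absent.
HES1: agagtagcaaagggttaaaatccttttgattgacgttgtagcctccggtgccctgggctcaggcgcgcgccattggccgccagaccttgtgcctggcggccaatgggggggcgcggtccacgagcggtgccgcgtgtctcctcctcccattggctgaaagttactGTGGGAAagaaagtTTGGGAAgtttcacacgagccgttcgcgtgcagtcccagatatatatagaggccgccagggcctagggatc

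On either strand, GTGGGAA occurred in 5.43% of 35116 promoter windows of this length, TTGGGAA in 4.27% and both in 0.276%. Promoters were found for 8 of the 10 members, and HES1 was the one with a match. Such a match is a description of letters and not a measured site.

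Another 8 genes that Notch is known to switch on were examined, of which 7 were tested. In S2-028 against S2-007, 4 were called, 3 higher and 1 lower. In S2-020 against S2-007, 3 were called, all higher, and in S2-028 against S2-020, 4 were called, 2 in each direction. Over all genes tested 18.4%, 21.6% and 22.2% were called, with 10.2%, 9.57% and 12.1% higher in the first line named. The median log2 fold change of the 7 was 0.75, 0.52 and -0.11, beside 0.00, -0.05 and 0.02 over all genes tested. HES7, a repressor of the segmentation clock, was at 0.67 ± 0.04 CPM in S2-007, 2.82 ± 0.31 in S2-020 and 5.02 ± 0.60 in S2-028, and was called in all 3 comparisons. It was 7.51-fold higher in S2-028 than in S2-007 (adjusted p = 5.47e-10). HEYL was at 0.61 ± 0.15, 2.17 ± 0.48 and 2.13 ± 0.45 CPM, higher than S2-007 in both other lines by 3.46-fold and 3.49-fold (adjusted p = 2.39e-05 and 4.13e-05). HEY1, another Hairy-related repressor, was at 0.09 ± 0.04, 0.75 ± 0.12 and 0.29 ± 0.17 CPM and was called higher in S2-020 than in S2-007 (log2 fold change 3.00 ± 0.53) and lower in S2-028 than in S2-020 (-1.36 ± 0.47).

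NRARP, a feedback inhibitor that Notch itself induces, was highest in S2-020, at 18.5 ± 0.1 CPM in S2-007, 25.04 ± 3.15 in S2-020 and 12.3 ± 0.5 in S2-028. It was 2.03-fold lower in S2-028 than in S2-020 (adjusted p = 8.30e-08) and just past the threshold against S2-007 (log2 fold change -0.59 ± 0.10, adjusted p = 4.51e-05). HES4 was at 6.41 ± 1.08, 6.54 ± 1.40 and 10.7 ± 1.1 CPM and was called higher in S2-028 than in either other line (log2 fold change 0.75 ± 0.14 and 0.72 ± 0.15). SOX9, a regulator of ductal identity, was at 54.8 ± 4.5, 80.3 ± 1.8 and 74.3 ± 1.8 CPM, and HEY2 at 1.42 ± 0.38, 1.66 ± 0.46 and 0.87 ± 0.49 CPM, and neither was called. SOX9 lay above S2-007 without overlap in S2-028 (0.44 ± 0.07, adjusted p = 3.60e-05) and in S2-020 (0.52 ± 0.07, adjusted p = 1.78e-06), short of the fold required. HES5 was too low to be tested, at 0.06 ± 0.04, 0.09 ± 0.06 and 0.09 ± 0.08 CPM. GTGGGAA was also found in the 250 bases before HES4, HEY2 and HEYL.

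The rest of the pathway comprised 58 genes in 8 role lists. Of the 55 tested in S2-028 against S2-007, 18 (32.7%) were called, 11 higher and 7 lower. In S2-020 against S2-007, 18 of 55 (32.7%) were called, 14 higher and 4 lower, and in S2-028 against S2-020, 18 of 54 (33.3%), 9 in each direction. Over all genes tested the shares called were 18.4%, 21.6% and 22.2%. The median log2 fold changes of the pathway genes were 0.03, 0.18 and -0.09, beside 0.00, -0.05 and 0.02 over all genes tested. Without the minimum fold 31 (56.4%), 41 (74.5%) and 38 (70.4%) pathway genes passed the adjusted p, beside 33.9%, 40.2% and 40.4% of all genes tested.

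E3 ligases make ligands active by driving their uptake into the signalling cell. Of 4 genes, 2 were called in S2-028 against S2-007 and 3 in S2-020 against S2-007, all higher, and 2 in S2-028 against S2-020, 1 in each direction. NEURL1 was at 0.91, 0.56 and 0.61 CPM in S2-007, 4.90, 3.49 and 5.09 CPM in S2-020, and 48.1, 56.6 and 43.6 CPM in S2-028. It separated all 3 lines and was 71.0-fold higher in S2-028 than in S2-007 (log2 fold change 6.15 ± 0.15, adjusted p = 9.55e-18). NEURL1B had its peak in S2-020 instead, at 1.04 ± 0.11, 20.0 ± 2.6 and 5.87 ± 0.80 CPM in S2-007, in S2-020 and in S2-028 (18.8-fold higher in S2-020 than in S2-007, adjusted p = 5.57e-15). MIB1, the main ligase for Notch ligands in many tissues, was 1.68-fold higher in S2-020 than in S2-007 (adjusted p = 7.92e-10), at 151 ± 8 against 88.2 ± 3.2 CPM.

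Among the enzymes that put sugars on the receptors, 1 of 5 was called, the fringe enzyme LFNG. The share called was 20.0% in S2-020 against S2-007 and in S2-028 against S2-020, beside 21.6% and 22.2% of all genes tested. LFNG, which tunes the response to Delta and Jagged ligands, was at 20.2, 15.1 and 17.6 CPM in S2-007, 14.5, 13.9 and 10.7 CPM in S2-028, and 6.17, 5.31 and 6.98 CPM in S2-020. It was 2.93-fold lower in S2-020 than in S2-007 (adjusted p = 3.84e-09) and 2.12-fold higher in S2-028 than in S2-020 (adjusted p = 2.70e-06). None of the 5 was called in S2-028 against S2-007, where 2 had an adjusted p under 0.05 with a smaller change, LFNG (-0.43 ± 0.13) and RFNG (-0.28 ± 0.09).

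Of the 9 genes for receptor cleavage, 2 were called in S2-028 against S2-007, both higher, 4 in S2-020 against S2-007, 3 of them higher, and 3 in S2-028 against S2-020, 1 of them higher. These were 22.2%, 44.4% and 33.3% of the list, beside 18.4%, 21.6% and 22.2% of all genes tested. ADAM17, a protease related to ADAM10, was highest in S2-028, at 80.9 ± 4.8 CPM against 50.4 ± 1.1 in S2-007 and 44.3 ± 1.1 in S2-020 (log2 fold change 0.68 ± 0.07 and 0.87 ± 0.06, adjusted p = 3.48e-08 and 9.49e-10). ADAM10 itself stood at 226 ± 7, 231 ± 9 and 226 ± 12 CPM in S2-007, in S2-020 and in S2-028. The gamma-secretase subunits PSENEN and PSEN2 were higher in S2-020 than in S2-007 (0.92 ± 0.08 and 0.91 ± 0.11), while the subunit NCSTN was lower (-0.62 ± 0.06). PSENEN was also called higher in S2-028 than in S2-007 (0.60 ± 0.09), and PSEN2 lower in S2-028 than in S2-020 (-1.33 ± 0.11).

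Genes of receptor turnover were called in 3 of 9 tested, 2 of 8 and 2 of 8. NUMBL, related to the Notch inhibitor NUMB, was higher than S2-007 in both other lines, at 6.94 ± 1.08, 26.6 ± 2.3 and 20.1 ± 1.4 CPM in S2-007, in S2-020 and in S2-028 (adjusted p = 1.36e-11 and 8.55e-10). DTX3, of the Deltex family of ubiquitin ligases, was highest in S2-028, at 8.55 ± 0.85, 12.0 ± 1.1 and 36.9 ± 1.9 CPM. DTX4 of the same family was nearly lost from S2-020, at 20.3 ± 1.0, 0.51 ± 0.30 and 10.6 ± 1.4 CPM, and was 40.2-fold lower there than in S2-007 (adjusted p = 1.76e-13).

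Among 10 genes of the nuclear activating complex, 3 were called in S2-028 against S2-007, 2 in S2-020 against S2-007 and 2 of 9 tested in S2-028 against S2-020. As shares these were 30.0%, 20.0% and 22.2%, beside 18.4%, 21.6% and 22.2% of all genes tested. RBPJ, the DNA-binding partner of all Notch receptors, was called in 1 comparison, at 45.7 ± 1.0, 81.5 ± 0.5 and 61.4 ± 2.3 CPM in S2-007, in S2-020 and in S2-028 (0.80 ± 0.05 in S2-020 against S2-007, adjusted p = 2.10e-10). The acetyltransferase KAT2B was called in all 3, at 23.4 ± 2.5, 38.9 ± 1.5 and 14.5 ± 1.6 CPM. The coactivator MAML2 was lower in S2-028 than in S2-007 (-0.71 ± 0.06). MAML3 was called higher in S2-028 than in S2-007 (0.81 ± 0.22) and than in S2-020 (1.27 ± 0.23).

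Of the 10 corepressor genes, 4, 3 and 4 were called in S2-028 against S2-007, S2-020 against S2-007 and S2-028 against S2-020. That made 40.0%, 30.0% and 40.0%, beside 18.4%, 21.6% and 22.2% of all genes tested. TLE1 and TLE4, Groucho-type corepressors that HES proteins recruit, had unlike orders. TLE1 was at 26.7 ± 1.2, 66.5 ± 3.0 and 100.2 ± 5.8 CPM in S2-007, in S2-020 and in S2-028, and TLE4 at 8.68 ± 0.53, 37.9 ± 0.9 and 4.48 ± 0.42 CPM. TLE4 was 8.46-fold lower in S2-028 than in S2-020 (adjusted p = 3.93e-15), and TLE1 was 3.76-fold higher in S2-028 than in S2-007 (adjusted p = 4.59e-15). The noncanonical ligands DLK1, DLK2 and DNER were low, and none was called.

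The genes whose pattern over the 9 libraries was most like that of the widest-ranging members were found by the root mean square difference of centred log2 CPM among 28019 genes. Nearest to NOTCH3 were the complement gene C3 (0.25), FUT9 (0.34) and ARHGDIB (0.34), all highest in S2-028. Nearest to NOTCH1 were EEPD1 (0.10), LGALS3 (0.12) and EPB41L4B (0.13), and nearest to JAG2 were RPH3AL (0.16), GSTZ1 (0.17) and OCIAD2 (0.18).

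The members' changes were also set beside those of the 50 nearest tested genes on the chromosome, as a description. Around NOTCH1 the median log2 fold change was -0.05 in S2-028 against S2-007 and -0.15 in S2-020 against S2-007, where NOTCH1 itself stood at -1.31 and -2.33. Around NOTCH3 it was -0.01 in S2-028 against S2-007, and around NOTCH2 0.13 in S2-020 against S2-007. Around JAG2 the median was -0.47 in S2-028 against S2-007, and -0.25 in S2-020 against S2-007, beside -0.16 and -1.64 for JAG2 itself.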

How the data were processed

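RNA-seq libraries of S2-007, S2-020 and S2-028 (3 per line) were assigned to lines and replicates by their titles. Per the submitters' processing notes, Trimmomatic 0.39, BWA 0.7.17, SAMtools 1.12 and edgeR 3.16.5 were used, with GRCh38.p14. The authors deposited raw counts of reads per gene, as whole numbers, for 42717 genes. A further 2 lines name no gene and were left out. Columns of normalized signal, which the authors derived from these counts and deposited beside them, were not used here. The counting tool and its treatment of strand and of reads with several matches are not given in the sources used here. BWA makes no spliced alignments, which can lose reads that span an exon junction.

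The members and gene lists were chosen with earlier results of these data known. Counts were tested in R 4.3.3 with edgeR 4.0.16: filterByExpr (minimum count 10, minimum total 15), TMM, and glmQLFTest on the 6 libraries of each pair of lines, with Benjamini-Hochberg adjustment over all genes tested. The standard error is the log2 fold change over the root of F. Logarithms of CPM used a prior count of 2. The procedure was tested on simulated counts. TMM factors of printed CPM come from all 9 libraries, so their ratios can differ slightly from fold changes. Shares used counts per kilobase of the exon union of GENCODE genes and exact permutation tests (scipy 1.17.1). All members, the NOTCH2NL genes and the targets were named, and of every other role list the 2 called genes with the smallest adjusted p per comparison. Values of some listed genes are not reported here, though list counts include them. RFNG, ADAM10 and the marker genes given singly were chosen after their values were seen. Alternatives were DESeq2 1.42.0, other scalings, filters and thresholds, 1 fit of all libraries, a replicate block, and leaving out each library. Deviations of libraries with the same replicate number were uncorrelated, so the numbers were not taken as pairs. Counting floors cover counting error only.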

Additional observations from a re-analysis of the deposited data

How the results depend on the processing

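For the 9 members tested in 3 comparisons, 405 alternative values were computed, of which 384 kept the direction and the side of the threshold, 9 lost a call, 2 gained one and 10 changed sign. With a 1.5-fold change as the null, the members called fell to 2 in S2-028 against S2-007 and 3 in S2-028 against S2-020, and the pathway genes called to 10 in S2-028 against S2-007. With no minimum fold, 5 members were called in S2-020 against S2-007, and 31, 41 and 38 pathway genes in S2-028 against S2-007, S2-020 against S2-007 and S2-028 against S2-020. These thresholds differ by construction.

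Leaving out single libraries gave 4, 3 and 4 to 5 members called and 16 to 19, 17 to 19 and 15 to 19 pathway genes called in the same order of comparisons. The sign changes with a library left out were all of genes not called: the log2 fold change ranged from -0.16 to 0.17 for NOTCH4 and -0.12 to 0.10 for DLL1 in S2-028 against S2-007, from -0.12 to 0.31 for NOTCH3 and -0.19 to 0.49 for DLL4 in S2-020 against S2-007. For the paralogs it ranged from -0.0629 to 0.113 for NOTCH2NLA in S2-028 against S2-007, and from -0.111 to 0.0600 for NOTCH2NLB and -0.146 to 0.0378 for NOTCH2NLC in S2-028 against S2-020. Scaling by total count alone shifted the median of all genes to -0.11 in S2-020 against S2-007 and 0.11 in S2-028 against S2-020. It put NOTCH3 at -0.0151 in S2-020 against S2-007 and NOTCH2NLB at 0.0605 and NOTCH2NLC at 0.0132 in S2-028 against S2-020. NOTCH2NLA in S2-028 against S2-007 was at -0.00053 with DESeq2 size factors and -0.00055 with the DESeq2 Wald test. The cause of these sign changes was not tested.

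A fit with the replicate block called 4, 3 and 5 members and 18, 18 and 18 pathway genes, as without it. The correlation of deviations between libraries of the same number lay between -0.0219 and 0.014.

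Without division by length NOTCH2 took 65.3%, 93.9% and 81.0% of the receptor sum and JAG1 68.6%, 81.2% and 55.7% of the ligand sum in S2-007, in S2-020 and in S2-028. With the length of the MANE Select transcript, chosen after seeing the data, the shares were 61.0%, 92.6% and 77.6%, and 65.9%, 77.3% and 51.5%. With the NOTCH2NL counts added, NOTCH2 took 63.3%, 92.8% and 78.2%. The order of the lines was the same in each. Low counts limit DLL3, DLL4 and HEY1 most.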
